A study of Rattus norvegicus with 6 samples.

Results

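The genes described here encode mTOR, its partner proteins and the regulators next to it, measured in rat jejunum after heat and shake stress. They are Mtor, Rptor, Rictor, Mlst8, Tsc1, Tsc2, Rheb, Akt1, Rps6kb1 and Eif4ebp1, and every probe of the array whose RefSeq transcript belongs to one of them was taken, whatever its value. This gave 11 probes of 9 genes, among 41012 probes that were not controls and 13837 genes that could be named. Rheb and Eif4ebp1 had 2 probes each, and no probe was matched to Rictor. All 11 probes were well above background on all 6 arrays and were tested.

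The control group and the S3d group each had 3 samples, each hybridised to 1 array of a 1-colour Agilent platform. All rats were male Sprague-Dawley, 6 weeks old and 200 ± 20 g, and carried no stated genetic change. They were housed at 25°C for acclimation, and the S3d group then spent 2 h a day, on 3 days, on a shaker that moved at 0.1 g in a chamber at 35°C. Each sample was total RNA pooled from 3 rats, so that single animals were not resolved and a p-value measures only the spread between such pools. Per the labels there were 10 rats per group, a number that differs from that in the study's methods. The smaller number in the methods would not allow 3 pools of 3 different rats each. Whether pools shared rats is not known, and the tests treat the pools as independent.

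mTOR is a protein kinase that joins growth signals to protein synthesis and holds autophagy back when nutrients are plentiful. With RAPTOR (Rptor) it forms mTOR complex 1, with RICTOR it forms mTOR complex 2, and mLST8 is a subunit of both. The GTPase RHEB switches complex 1 on, the TSC1 and TSC2 proteins switch RHEB off, and the kinase AKT1, which acts downstream of insulin, relieves that brake by phosphorylating TSC2. The S6 kinase encoded by Rps6kb1 and the translation repressor encoded by Eif4ebp1 are the classic substrates of complex 1. In the intestine the pathway is known for its role in crypt cell growth and in the renewal of the epithelium. All of this regulation acts on proteins and their phosphorylation, and the arrays measured transcripts only.

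Several properties of the arrays bear on every value. The 75th percentile of the processed signal, the spot brightness after background subtraction, lay between 414.8 and 430.0 in the control group and between 1457.7 and 1558.3 in the S3d group. Each group had a slide to itself, with 450 days between the scans, so slide, scan and group cannot be told apart. The deposited table of normalized log2 values has 1 column per sample, and each of the 6 columns matched a scanner file of the opposite group, that of the same number (rank correlation of at least 0.99999, against at most 0.952 with the file of their own sample). The 2 sources therefore carry exchanged group labels, no sample was reassigned, and which of them is right was not settled from these files; measurements of the study other than the arrays were not used here. The array labelled S3d replicate 1 carried pancreatic transcripts: Prss1, a trypsinogen, was at 8.79 on the log2 scale relative to the 75th percentile, against -2.73 to 0.88 on the other arrays, and Amy2a3, an amylase, was at 8.0 against -7.84 to -4.45. The absorptive lining was present on every array, since all 10 enterocyte markers on the array were well above background on all 6 arrays.

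Differences below are log2 values, S3d minus control by the labels of the scanner files, after each array was divided by its own 75th percentile. The labels of the deposited normalized table give the called members the opposite sign, so the direction stated here opposes the one that the study's own normalized values carry. A probe was called at an adjusted p under 0.05 from limma, a linear model fitted over all 31367 tested probes with Benjamini-Hochberg adjustment.

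By the scanner labels, Mtor and Rptor rose on the arrays labelled S3d, Tsc2, Akt1 and Eif4ebp1 fell, and Mlst8, Tsc1, Rheb and Rps6kb1 did not pass the test. The largest difference was that of Mtor, at 1.24, and the lowest that of Eif4ebp1, at -0.85. In all, 6 of the 11 probes were called, 2 of them higher and 4 lower. Of all tested probes, 74.0% were called at the same threshold, 39.5% higher and 34.5% lower, so the share among the members was not above the background. With a fold of at least 1.5 added, 3 of the 11 probes remained (Mtor and both Eif4ebp1 probes), against 52.5% of all tested probes. The groups did not overlap for 7 of the 11 probes, against 78.3% of all tested probes. The median difference of all tested probes was 0.08. Of all called probes, 53.4% were higher on the arrays labelled S3d, a share that was 42.8% with each array centred on its median, 98.1% without scaling and 30.7% with normexp background correction before the 75th percentile.

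**Figure D1:**
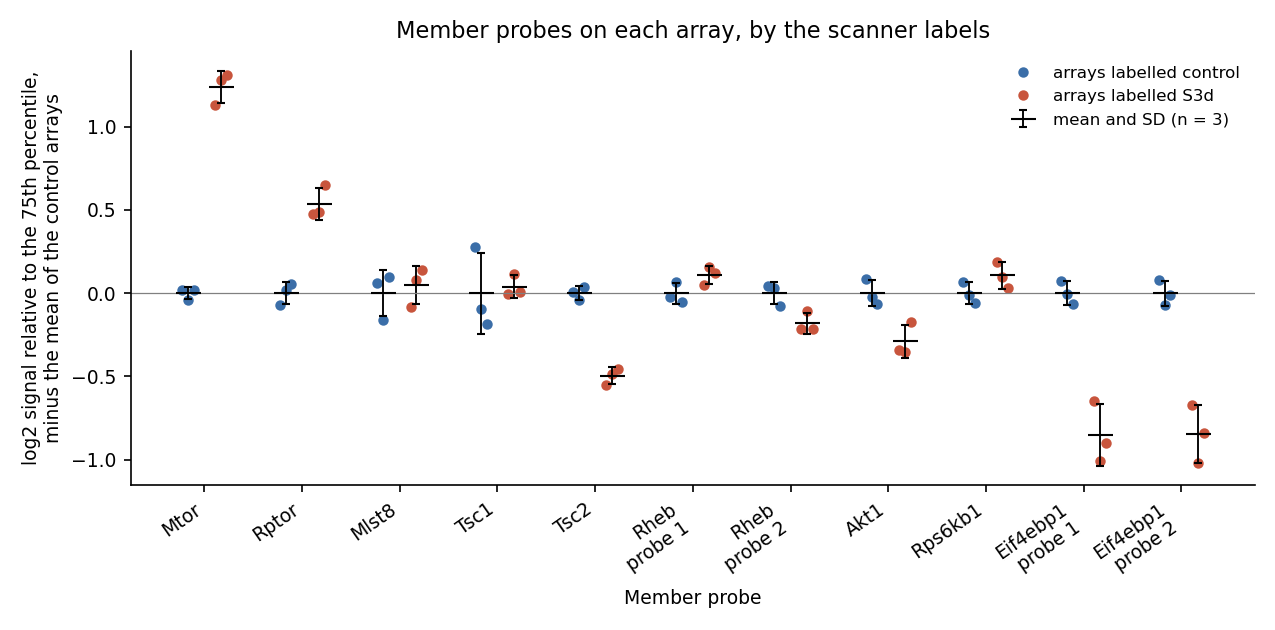
The vertical axis gives the log2 signal relative to the 75th percentile of the array, minus the mean of the 3 control arrays, for each of the 11 member probes; points are single arrays, and black marks are the mean and SD (n = 3). By the scanner labels the Mtor and Rptor points of S3d lie above all control points, and those of Tsc2, Akt1 and both Eif4ebp1 probes lie below them; all of these directions are opposite by the labels of the deposited normalized table.

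The promoters of Mtor and Tsc2 are shown because the kinase and its inhibitory regulator moved in opposite directions on the same arrays. The sequences are from the RefSeq promoter set of the rat assembly GRCr8, which holds 8 of the 10 genes. Each runs 5′ to 3′ on the strand of the gene over the 250 bases before its start, with GC boxes (GGGCGG) and CCAAT boxes (CCAAT) on either strand in capitals. The Mtor stretch lies on the plus strand at chr5:164167735-164167984, and the Tsc2 stretch lies on the minus strand at chr10:14160240-14160489.
Mtor: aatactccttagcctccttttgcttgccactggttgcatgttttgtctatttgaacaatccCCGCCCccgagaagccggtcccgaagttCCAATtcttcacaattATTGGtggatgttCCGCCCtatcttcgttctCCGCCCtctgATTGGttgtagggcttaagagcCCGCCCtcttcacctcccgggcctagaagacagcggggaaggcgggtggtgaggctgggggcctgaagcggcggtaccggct
Tsc2: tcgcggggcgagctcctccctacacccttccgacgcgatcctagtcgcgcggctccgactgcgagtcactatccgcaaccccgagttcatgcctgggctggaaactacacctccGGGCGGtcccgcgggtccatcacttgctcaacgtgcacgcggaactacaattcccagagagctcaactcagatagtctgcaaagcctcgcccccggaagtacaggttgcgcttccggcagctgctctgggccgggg
The Mtor stretch held 4 GC boxes and 3 CCAAT boxes, and its GC content was 56.8%. The Tsc2 stretch held 1 GC box and no CCAAT box, and its GC content was 64.0%. The median over 27457 rat promoters of this length was 52.0%, and 32.4% of them held a GC box and 34.3% a CCAAT box. Of the 8 members with a promoter, Mtor, Rictor, Tsc2 and Rheb held a GC box, and Mtor and Mlst8 a CCAAT box. The heat shock element core GAANNTTC was found in 0 of the 8 and in 7.02% of all promoters. The cAMP response element core TGACGT was found in 0 of the 8 and in 7.25% of all promoters, and the E-box CACGTG in Rheb alone and in 5.79%. None of these motifs overlapped another in the stretches printed.

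Mtor, the kinase itself, is measured by a probe of transcript NM_019906 that is spotted 10 times on each array. Relative to the 75th percentile it was at -2.11, -2.17 and -2.11 on control arrays 1, 2 and 3, and at -1.0, -0.85 and -0.82 on S3d arrays 1, 2 and 3. All 3 S3d arrays were higher than all 3 control arrays. The difference was 1.24 (standard error 0.073, 95% confidence interval 1.07 to 1.42), a 2.37-fold higher level (limma, adjusted p = 3.33e-05, n = 3 per group). It stood at percentile 85.6 of the differences of all tested probes.

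The repeated spots show how precisely a single array measured this transcript. The unscaled signals of the 10 Mtor spots ran from 86.86 to 109.2 over the 3 control arrays and from 669.9 to 951.3 over the 3 S3d arrays. Within an array their coefficient of variation was 3.8% to 6.8%. The 10 spots of the Akt1 probe varied by 2.4% to 4.7% within an array. These spots measure the same hybridised RNA and were averaged before the test, so they add no replicates.

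**Figure D2:**
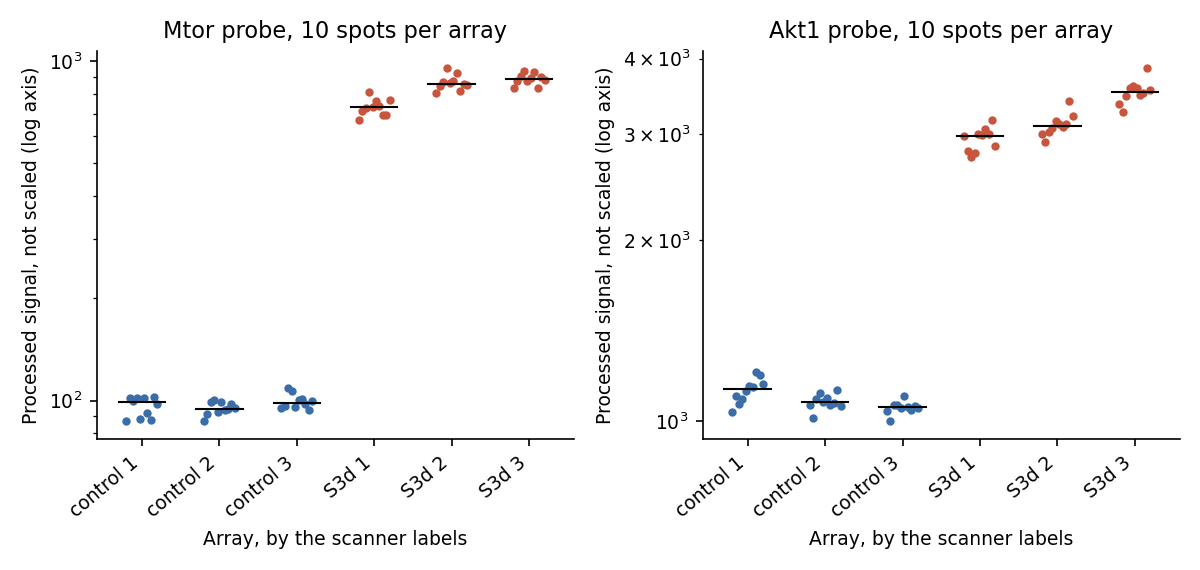
Each point is the unscaled processed signal of 1 spot on a log axis, for the 10 spots of the Mtor probe and the 10 spots of the Akt1 probe on each array, by the scanner labels; black lines are medians. Before scaling, the S3d arrays are brighter for both probes, from 669.9 to 951.3 for Mtor and from 2749 to 3854 for Akt1; after scaling Mtor stays higher on the S3d arrays while Akt1 is lower, and both directions are opposite by the labels of the deposited table.

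Rptor encodes the scaffold that brings substrates to complex 1. It was at -3.38, -3.29 and -3.25 on the control arrays and at -2.83, -2.82 and -2.66 on the S3d arrays, without overlap. It rose by 0.54 (standard error 0.078, 1.45-fold, limma, adjusted p = 0.00119). The call was lost with normexp background correction followed by quantile normalization, at 0.11 (adjusted p = 0.106).

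Mlst8 encodes the subunit that both complexes share. It was at -3.34, -3.56 and -3.30 on the control arrays and at -3.48, -3.32 and -3.26 on the S3d arrays, and the groups overlapped. Its difference was 0.05 (95% confidence interval -0.20 to 0.29, limma, adjusted p = 0.70), and it was -0.22 after quantile normalization, also not called. With normexp background correction and quantile normalization it was called lower, at -0.17 (adjusted p = 0.0295), so no direction of Mlst8 is given. The change of Mtor on the same arrays exceeded that of Mlst8 by 1.20.

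Tsc2 encodes the subunit of the TSC complex that turns RHEB off. It was at 0.01, -0.04 and 0.04 on the control arrays and at -0.55, -0.48 and -0.45 on the S3d arrays, so that all S3d arrays were lower. It fell by 0.49 on the log2 scale (standard error 0.063, 1.41-fold lower, limma, adjusted p = 0.000664). Tsc1, which encodes the stabilising partner of TSC2, was at -3.79, -4.16 and -4.25 on the control arrays and at -4.07, -3.95 and -4.06 on the S3d arrays. The 3 S3d values of Tsc1 lay within the range of the control values. Its difference was 0.04 (95% confidence interval -0.29 to 0.37, limma, adjusted p = 0.795). Control replicate 1 was the highest of the 6 arrays, and the control SD was 0.25. Whether Tsc1 and Tsc2 differed from each other in their change was not tested.

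Rheb encodes the GTPase that activates complex 1, and its 2 probes moved apart. Probe 1 was at 3.34, 3.43 and 3.31 on the control arrays and at 3.41, 3.52 and 3.48 on the S3d arrays, a difference of 0.11 (limma, adjusted p = 0.178). Probe 2 was at 3.4, 3.39 and 3.28 on the control arrays and at 3.14, 3.25 and 3.14 on the S3d arrays, a difference of -0.18 that did not pass the test (limma, adjusted p = 0.0596), although the groups did not overlap. The log2 ratio of probe 1 to probe 2 on the same array was -0.06, 0.04 and 0.03 on the control arrays and 0.28, 0.27 and 0.33 on the S3d arrays. The ratio was thus higher on all 3 S3d arrays, by 0.29, with a p of 0.1 in a two-sided exact permutation test, the smallest p that 3 arrays against 3 allow. No direction of Rheb is given, since it depends on the probe and on the scaling. After quantile normalization probe 1 was called higher at 0.42 (adjusted p = 0.0035), and after median centring probe 2 was called lower at -0.38 (adjusted p = 0.00375).

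Akt1 encodes the kinase that carries the insulin signal to the TSC complex. It was at 1.44, 1.33 and 1.29 on the control arrays and at 1.01, 1.00 and 1.18 on the S3d arrays, without overlap. It fell by 0.29 on the log2 scale (standard error 0.081, limma, adjusted p = 0.0168). This was the weakest of the calls: without S3d replicate 2 the difference was -0.26 (adjusted p = 0.0591).

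Eif4ebp1 encodes the repressor that binds the cap-binding protein eIF4E until complex 1 phosphorylates it. Its probe 1 was at 4.67, 4.59 and 4.53 on the control arrays and at 3.95, 3.59 and 3.70 on the S3d arrays. Probe 2 was at 3.22, 3.07 and 3.13 on the control arrays and at 2.47, 2.12 and 2.30 on the S3d arrays. On both probes every S3d array was lower than every control array. Probe 1 fell by 0.85 on the log2 scale (standard error 0.108, 1.80-fold lower, limma, adjusted p = 0.000636), and probe 2 fell by 0.84 (standard error 0.104, limma, adjusted p = 0.00057). The log2 ratio of the probes changed by -0.01 between the groups (two-sided exact permutation test, p = 1.0, where 0.1 is the smallest possible). On both probes S3d replicate 1, the array with pancreatic transcripts, was the highest of its group. That array was also the highest of its group for Rps6kb1. It was the lowest for Mtor, Rptor, Mlst8, Tsc1, Tsc2 and Rheb probe 1. Whether the pancreatic RNA had a part in this was not tested.

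Rps6kb1 encodes the kinase that phosphorylates ribosomal protein S6. It was at 1.73, 1.65 and 1.60 on the control arrays and at 1.85, 1.76 and 1.69 on the S3d arrays, with the ranges overlapping. Its difference of 0.11 was not called (95% confidence interval -0.07 to 0.29, limma, adjusted p = 0.222). It was called at 0.20 after quantile normalization (adjusted p = 0.0487) and was at -0.09 after median centring.

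Without the array labelled S3d replicate 1, 6 of the 11 probes passed the test, against 72.7% of all tested probes. The difference of Mtor was then 1.30, that of Rptor 0.57, that of Tsc2 -0.46, that of Akt1 -0.27 and those of the Eif4ebp1 probes -0.95 and -0.93. Without any scaling between arrays, all 11 probes were called higher on the S3d arrays. Of all tested probes, 96.0% were then called in either direction, 98.1% of these were higher, and the median over all tested probes was 1.93. Against that median, Mtor at 3.09 and Rptor at 2.38 stood higher, and Tsc2 at 1.35, Akt1 at 1.55 and both Eif4ebp1 probes at 1.0 stood lower. With normexp background correction before the 75th percentile, a setting added after the data were seen, 0 of the 11 probes were called, against 5.94% of all tested probes. Mtor was then at 0.36 (adjusted p = 0.51).

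Ratios between members on the same array are free of any scaling by a constant per array. The pairs were chosen after the values were seen and are given without a test. The change of Mtor exceeded that of Tsc2 by 1.73, and the ratio, set to a control mean of 0, was within -0.02 to 0.01 on the control arrays and within 1.68 to 1.76 on the S3d arrays. The change of Mtor exceeded that of Akt1 by 1.54, that of Eif4ebp1 probe 1 by 2.09 and that of Rptor by 0.71. For each of these pairs the control and S3d ranges lay apart, which their choice by value made likely. Quantile normalization and background correction are not scalings by a constant, and such ratios can change under them. With normexp and the 75th percentile Mtor was at 0.36 and Akt1 at 0.07.

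The deposited normalized table, read by its own labels, gave the mirror image for most members. There Mtor was at 8.64, 8.79 and 8.82 in the control columns and at 7.61, 7.54 and 7.59 in the S3d columns, a difference of -1.17 (limma, adjusted p = 5.18e-05). Rptor differed by -0.31, Tsc2 by 0.49, Akt1 by 0.25, and the Eif4ebp1 probes by 0.47 and 0.64, all of them called. Rheb probe 1 at -0.42 and Rps6kb1 at -0.20 were called in this table as well, which made 8 of 11 probes (4 higher and 4 lower), against 70.1% of all tested probes. Mlst8 at 0.23, Tsc1 at 0.33 and Rheb probe 2 at -0.11 were not called. Quantile normalization of the scanner files, by their own labels, gave 1.17 for Mtor, 0.32 for Rptor, -0.49 for Tsc2, -0.25 for Akt1, and -0.48 and -0.64 for Eif4ebp1, and also 8 called probes, against 70.6% of all tested probes. The sizes therefore matched to within 0.01 under the same kind of scaling for these probes, and the signs were opposite.

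**Figure D3:**
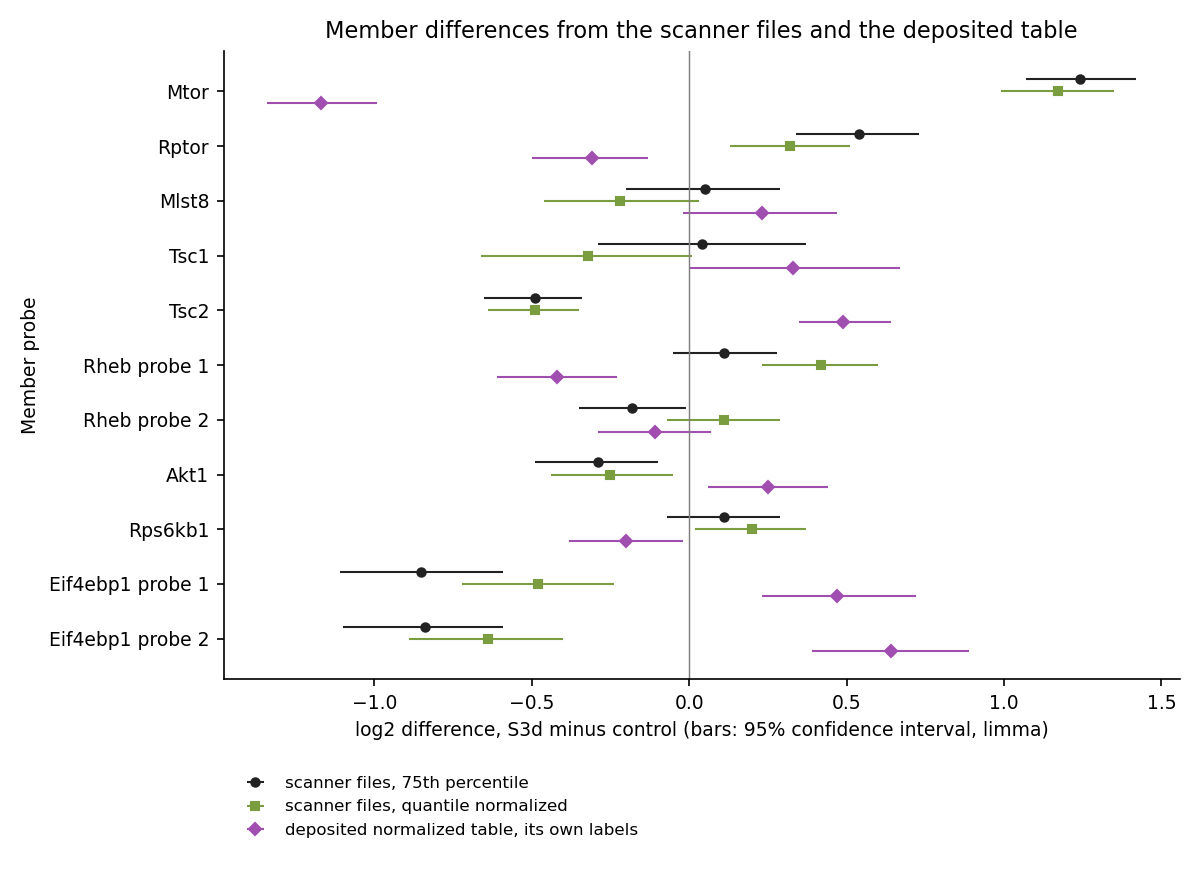
Points are log2 differences, S3d minus control, of the 11 member probes with 95% confidence intervals from limma, for the scanner files scaled to the 75th percentile, the scanner files after quantile normalization, and the deposited normalized table by its own labels. The Mtor points lie at 1.24, 1.17 and -1.17, and the deposited table mirrors the quantile-normalized scanner values for every probe.

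Markers of the cell types of the tissue also differed between the groups, and the part of the cell types in the results was not tested. The share to set beside the marker counts is the 74.0% of all tested probes that were called, 39.5% higher and 34.5% lower. Of 10 enterocyte markers, 1 was called higher and 8 lower on the S3d arrays. Their levels were summed on a linear scale where the 75th percentile is 1. The sum was 3480 to 3880 on the control arrays and 1500 to 1550 on the S3d arrays. For goblet and Paneth cells the sum was 815 to 871 against 309 to 322, with 1 of 3 markers called lower. That marker was Tff3 at -2.13, while Clca1 was at -0.03 and Lyz2 at -0.08. For proliferating crypt cells the sum was 41.8 to 45.5 against 48.1 to 49.8, with 5 of 6 markers called higher and 1 lower. Single markers carried such sums. Olfm4 rose from a mean of 0.18 to 3.05 on the log2 scale, while Cdk1, the brightest crypt marker, fell from 4.57 to 4.05. The sums of smooth muscle (6 markers, 2 called higher and 2 lower) were 122 to 147 against 115 to 135. Leukocyte sums were 20.0 to 27.1 against 15.6 to 18.1 (7 of 9 markers tested, 1 called higher and 6 lower), and those of endothelium and fibroblasts 80.2 to 92.0 against 94.8 to 103 (5 markers, 1 higher and 3 lower). The higher sum of endothelium and fibroblasts came with Col1a1, the marker called higher, at 1.52. These differences depended on the scaling. After quantile normalization 3 of the 10 enterocyte markers were called higher and 2 lower, with a median difference of 0.04 in place of -1.03. Of the 6 crypt markers, 4 were then called higher and 0 lower, against 70.6% of all tested probes called. In the deposited table, by its own labels, 0 crypt markers were called higher and 4 lower, against 70.1% of all tested probes called. Fewer cells of a type and less RNA per cell cannot be told apart in such bulk samples.

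Around the members, 95 further genes of the pathway in 5 lists were read on their brightest probe. Of these, 73 were on the array and 72 were tested; 19 were called higher and 33 lower on the S3d arrays, with a median difference of -0.13. The 52 called genes are 72.2% of those tested, and 73.5% of the brightest probes of all named genes were called. In the 5 lists described next, 58.3% to 85% of the tested genes were called. After quantile normalization 22 were called higher and 32 lower, and with median centring 11 and 42. Of all called probes, 49.6% and 42.8% were higher in these settings. Without scaling 67 were called higher and 1 lower, where 98.1% of all called probes were higher. In the deposited table, by its own labels, 31 were called higher and 21 lower, where 50.4% of all called probes were higher. Each called gene named below had the opposite sign there.

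Among the other subunits and cofactors of the complexes, 1 of the 5 tested genes was called higher and 2 lower, with a median of 0.00. Akt1s1, whose product PRAS40 inhibits complex 1, fell by 1.61 on the log2 scale (limma, adjusted p = 1.57e-05). It was at 3.39, 3.31 and 3.39 on the control arrays and at 1.81, 1.67 and 1.77 on the S3d arrays, and its other probe gave -1.75. Mapkap1, which encodes the SIN1 subunit of complex 2, was at 1.15, 1.13 and 1.14 on the control arrays and at 1.77, 1.83 and 1.76 on the S3d arrays, and rose by 0.64 (limma, adjusted p = 0.000145). Both separated the groups completely, as did 78.3% of all tested probes, and both had been picked for their large differences.

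In the list of insulin, PI3K and AKT input, 5 of the 16 tested genes were called higher and 8 lower, with a median of -0.21. Insr, the insulin receptor, fell by 1.17 on the log2 scale (-3.46, -3.36 and -3.12 on the control arrays, -4.33, -4.40 and -4.72 on the S3d arrays, limma, adjusted p = 5e-04). Tbc1d7, whose product is the third subunit of the TSC complex, was at -2.09, -2.11 and -1.94 on the control arrays and at -0.89, -0.91 and -0.85 on the S3d arrays. It rose by 1.16 (limma, adjusted p = 3.74e-05), and its other probe gave 1.21. Of the TSC complex, therefore, Tsc2 was called lower, Tbc1d7 higher, and Tsc1 was not called. Akt2, which encodes a relative of AKT1 and was chosen for mention after its value was seen, was not called at -0.04.

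In the list of energy and stress input, 3 of the 12 tested genes were called higher and 4 lower, with a median of -0.04. The split depended on the scaling. With median centring 1 was called higher and 7 lower, with a median of -0.24. After quantile normalization 5 were called higher and 4 lower, with a median of 0.09, and without scaling 11 and 1. Stk11 encodes LKB1, the kinase that activates AMPK, and had the largest fall of all 5 lists. It was at -0.43, -0.57 and -0.46 on the control arrays and at -2.71, -2.67 and -2.51 on the S3d arrays, and fell by 2.15 on the log2 scale (limma, adjusted p = 1.35e-05), with -2.28 on its other probe. Prkag1, a regulatory subunit of AMPK, rose by 0.80 (0.95, 0.84 and 0.91 on the control arrays, 1.77, 1.63 and 1.71 on the S3d arrays, limma, adjusted p = 0.000123). Ddit4, whose product restrains complex 1 under stress, was not called at 0.11, and this gene too was picked after its value was seen.

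In the list of amino acid input at the lysosome, 6 of the 19 tested genes were called higher and 6 lower, with a median of 0.06. With median centring 4 were called higher and 9 lower, with a median of -0.15, and the median was 0.15 after quantile normalization. Rraga, one of the Rag GTPases that bring complex 1 to the lysosome, was at 0.46, 0.43 and 0.28 on the control arrays and at 1.18, 1.22 and 1.24 on the S3d arrays, and rose by 0.83 (limma, adjusted p = 0.000144). Castor2, a relative of an arginine sensor, fell by 1.54 on the log2 scale on its brightest probe (limma, adjusted p = 0.000156), but its other probe was not called at 0.33 (adjusted p = 0.177), so the probes disagree. The subunits of the Ragulator complex, which anchors the Rag GTPases and was picked after its values were seen, did not move together. Lamtor2 and Lamtor4 fell by 1.06 and by 1.48 on the log2 scale, Lamtor3 and Lamtor5 rose by 0.34 and 0.18, and Lamtor1 was not called at 0.17. The small differences depended on the setting. Lamtor3 was at 0.14 and not called after median centring (adjusted p = 0.219), and Lamtor1 was called at 0.57 after quantile normalization (adjusted p = 0.000677). Lamtor5 was at -0.02 after median centring and lost its call without a filter on dim probes (adjusted p = 0.0637) and in 5 of the 6 fits that left out an array, all but the one without S3d replicate 1.

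In the list of substrates and effectors, 4 of the 20 tested genes were called higher and 13 lower, with a median of -0.44, which was -0.26 after quantile normalization, 1.40 without scaling and 0.44 in the deposited table by its own labels. Gsk3a, a kinase that AKT inhibits, was at -0.25, 0.16 and -0.19 on the control arrays and at -1.87, -2.01 and -2.05 on the S3d arrays. It fell by 1.88 on the log2 scale (limma, adjusted p = 5.19e-05). Lpin1, a lipid phosphatase that complex 1 phosphorylates, rose by 0.96 (-4.59, -4.75 and -4.08 on the control arrays, -3.48, -3.66 and -3.40 on the S3d arrays, limma, adjusted p = 0.004), but it was at 0.12 and not called with normexp background correction and quantile normalization (adjusted p = 0.21). The relatives of Eif4ebp1, named after their values were seen, differed in sign: Eif4ebp2 rose by 0.25 on its brightest probe, whereas the mean over its probes was -0.48, and Eif4ebp3 fell by 0.75 on the log2 scale. The call of Eif4ebp2 was lost after median centring, at 0.04 (adjusted p = 0.632), without a filter on dim probes (adjusted p = 0.0582) and in 5 of the 6 fits that left out an array, all but the one without control replicate 3. Rps6, the ribosomal protein that the S6 kinase phosphorylates, was named in the same way and fell by 1.40 on the log2 scale, but it was at -0.14 and not called after quantile normalization (adjusted p = 0.0891), and ribosomal protein genes have near-identical copies in the genome.

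**Figure D4:**
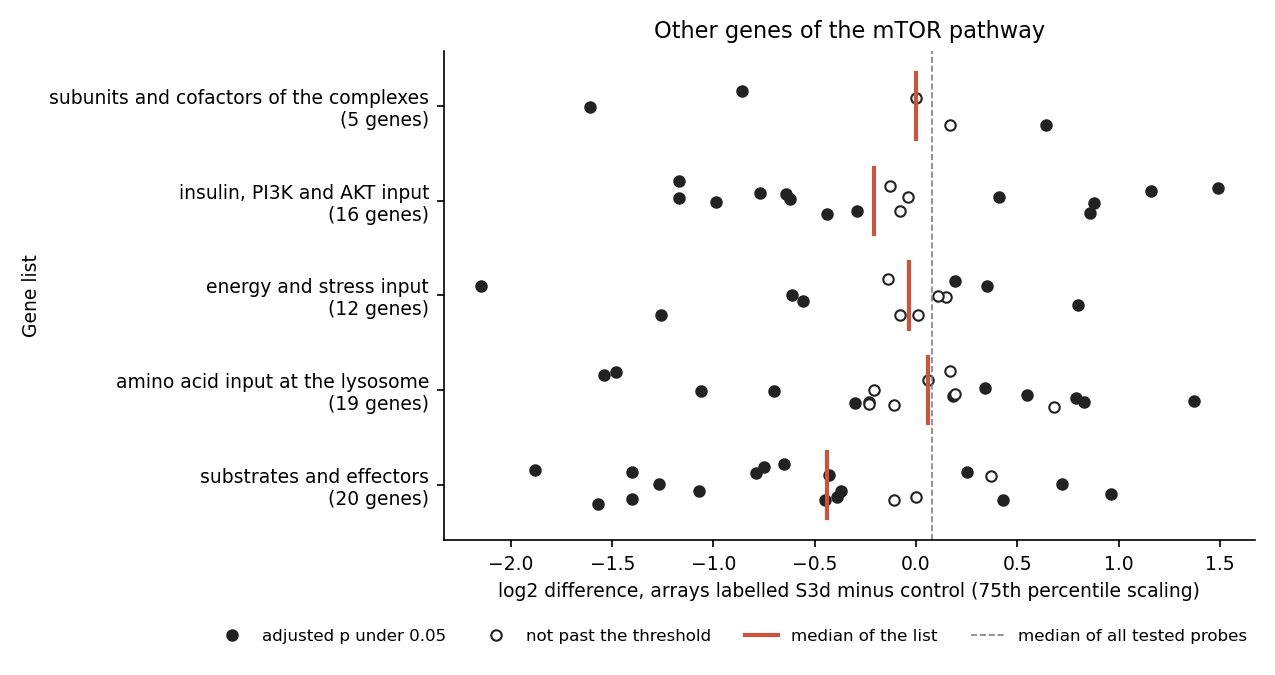
Each point is the log2 difference (arrays labelled S3d minus control, scanner labels) of 1 gene on its brightest probe, for the 72 tested genes of the 5 pathway lists; filled points passed an adjusted p of 0.05, red bars are list medians, and the dashed line is the median of all tested probes, 0.08. Points lie on both sides of 0 in every list, with Stk11 lowest at -2.15, and the substrates and effectors have the lowest median, -0.44; the deposited table, by its own labels, gives Stk11 and this median the opposite sign.

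The genes whose pattern over the 6 arrays was most like that of Mtor were found by the root-mean-square distance between values centred on each gene's own mean, over 10392 named genes well above background on all arrays. They were Arl14ep at a distance of 0.027, Vrk1 at 0.036, Snai1 at 0.038, Tada2a at 0.046 and Pigw at 0.052 log2 units. Their differences ran from 1.16 for Tada2a to 1.28 for Pigw. Vrk1 encodes a nuclear kinase, Snai1 a transcriptional repressor, Tada2a a subunit of histone acetyltransferase complexes and Pigw an enzyme of GPI anchor synthesis.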

How the data were processed

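Scanner output of all 6 arrays was deposited by the authors, read with Agilent Feature Extraction (10.7.3.1 per the file headers). Its intensity values, the processed signal, were corrected for background by that program but not normalized between arrays. The authors also deposited a table of log2 values that had been quantile-normalized, by a program not given in the sources used here.

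Each processed signal was divided by the 75th percentile of its array, and the log2 was taken. Flagged outlier spots and controls were dropped, and a probe's repeated spots were averaged. To be tested, a probe had to be well above background on the 3 arrays of either group, and 31367 of 41012 probes were. The groups were compared by a linear model without a block (lmFit and eBayes of limma 3.58.1, R 4.3.3), with Benjamini-Hochberg adjustment over all tested probes, after a test of the fit on simulated data. Probe pairs were compared with exact permutation tests (scipy 1.17.1). The number of arrays limits the precision.

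Probes were named through RefSeq accessions. The groups used different versions of the array design, which gave another accession for 1774 probes, none of them a member, and the later version was used. Promoters came from RefSeq (GRCr8).

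The members and the gene lists were chosen with earlier results of these data known. All members were named. From each wider list the rule took the largest rise and the largest fall among genes called with a fold of at least 1.5 on a probe above background on all 6 arrays, and for Mtor the 5 most similar genes. The alternatives were other scalings, normexp background correction (offset 50) on median signals (no mean signal column was used), other filters and thresholds, the deposited table, a replicate block, an intensity trend, array weights, the methods' analysis of variance, a mean over a gene's probes, and each array left out. Normexp with the 75th percentile was added after seeing the data. Genes named outside the rule were chosen after their values were seen, as stated beside them. Of the wider lists, 1 gene is counted in its list and not otherwise reported here. The slide could not be used as a block, since no slide held both groups.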

Additional observations from a re-analysis of the deposited data

How the results depend on the processing

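The group labels of the scanner files and of the deposited table are exchanged against each other, each group has its own slide and scan time, and only 3 arrays per group were measured. Slide, scan and group therefore cannot be told apart, and which labels are right was not settled from these files. After normexp with the 75th percentile, control replicate 3 had a median of 9.97 against 6.76 and 6.79 on the other control arrays, and none of the 11 member probes (0), 0 of the 9 member genes and 3 of the listed genes were called (5.94% of all tested probes were).

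The counts of called member probes, member genes and listed genes were 6, 5 and 52. Without scaling 11 probes and 9 genes were called. With a fold of at least 1.5 added there were 3 probes and 2 genes, and at an unadjusted p under 0.01 with that fold 3 probes, 2 genes and 33 listed genes (49.9% of all tested probes). Leaving out each array in turn gave 5 to 6 probes, 4 to 5 genes and 44 to 51 listed genes (68.4% to 72.7% of all tested probes). The other alternatives kept these counts within 1.5 times. The replicate numbers do not pair the samples, since the deviations of same-numbered arrays correlated at 0.02, 0.022 and -0.049. With the replicate number as a block, 5 probes, 4 genes and 49 listed genes were called (70.8% of all tested probes), and of the members the block took the call from Akt1 alone (adjusted p = 0.0511) and, of the other named genes, from Lamtor5 (0.0943) and Eif4ebp2 (0.0803). Rheb probe 2 was called at -0.18 with an intensity trend and by the methods' analysis of variance.

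In the deposited table, by its own labels, the sign turned for Mtor (-1.17), Rptor (-0.31), Tsc2 (0.49), Rheb probe 1 (-0.42), Akt1 (0.25), Rps6kb1 (-0.20), Eif4ebp1 probe 1 (0.47), Eif4ebp1 probe 2 (0.64), Akt1s1 (1.43), Mapkap1 (-0.71), Insr (1.55), Akt2 (0.24), Tbc1d7 (-1.08), Prkag1 (-0.85), Stk11 (2.24), Rraga (-0.86), Lamtor1 (-0.57), Lamtor2 (0.62), Lamtor3 (-0.40), Lamtor4 (1.25), Lamtor5 (-0.28), Castor2 (1.80), Rps6 (0.09), Eif4ebp2 (-0.41), Eif4ebp3 (0.52), Lpin1 (-0.60) and Gsk3a (1.95). Without scaling it turned for Tsc2 (1.35), Rheb probe 2 (1.67), Akt1 (1.55), Eif4ebp1 probe 1 (1.00), Eif4ebp1 probe 2 (1.00), Akt1s1 (0.23), Insr (0.67), Akt2 (1.80), Lamtor2 (0.78), Lamtor4 (0.37), Castor2 (0.30), Rps6 (0.44) and Eif4ebp3 (1.10). With normexp and the 75th percentile it turned for Rptor (-0.98), Mlst8 (-1.30), Tsc1 (-1.62), Rheb probe 2 (0.44), Akt1 (0.07) and Lpin1 (-1.26). With median centring it turned for Mlst8 (-0.16), Tsc1 (-0.16), Rheb probe 1 (-0.09), Rps6kb1 (-0.09), Lamtor1 (-0.03) and Lamtor5 (-0.02). With normexp and quantile normalization it turned for Mlst8 (-0.17), Tsc1 (-0.10) and Rheb probe 2 (0.17). With quantile normalization alone it turned for Mlst8 (-0.22), Tsc1 (-0.32) and Rheb probe 2 (0.11). With array weights it turned for Akt2 (0.01). With all probes of a gene averaged it turned for Rheb probe 1 (-0.03) and Eif4ebp2 (-0.48). With each array left out in turn, the sign was not stable for Mlst8 (-0.04 to 0.11), Tsc1 (-0.05 to 0.18) and Akt2 (-0.14 to 0.04), none of them called. The cause of these changes was not tested.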
